A study of Mus musculus with 6 samples.

Results

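Transcripts of 34 genes that mark the oligodendrocyte lineage were followed in mouse cerebellum of KO and WT animals at postnatal day 18. The genes were taken by symbol from the deposited gene tables and span precursors (6 genes), newly formed oligodendrocytes (6), transcription factors of the lineage (5), proteins of the myelin sheath (11) and enzymes and other proteins of myelin lipid synthesis and oligodendrocyte metabolism (6). All 34 were among the 24411 genes of the tables, and all 34 were among the 15519 genes that passed the filter on low counts. The KO group held 3 libraries from mice with the genotype Atoh7 Remote Enhancer KO, a deletion of a distant regulatory element of the proneural transcription factor gene Atoh7. The WT group held 3 libraries from wild-type mice of the same day, and the protocol calls the replicates of each group independent. Zygosity, strain, sex and founder line were not stated in the labels. The series title names the birth and axon growth of retinal ganglion cells as the subject, and cerebellum is the tissue measured in these libraries.

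Oligodendrocytes arise from dividing precursors, pass through a premyelinating stage and then wrap axons with a membrane sheath that speeds conduction. Olig and Sox transcription factors set up the lineage, and Myrf switches on the genes of myelin. Cerebellar white matter is being myelinated in the postnatal weeks, so precursors, newly formed and myelinating cells are present together. In a bulk sample, a lower level can stem from fewer cells of a type or from less RNA per cell, and these cannot be told apart.

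Libraries held 46160747 to 51947647 reads, of which 32556977 to 34438262 in KO and 16340132 to 28170761 in WT were assigned to genes. Rn45s, which encodes ribosomal RNA, took 1.28% to 1.67% of gene reads in KO libraries, 2.95% to 3.04% in WT replicates 1 and 2 and 63.2% in WT replicate 3, which stood apart and kept 6015125 reads for other genes. Reads outside annotated exons made up 17.1% to 17.6% of KO and 32.1% to 38.5% of WT libraries, and this gap cannot be told apart from genotype. WT replicate 1 was the only library with high Xist (31134 reads, at most 10 elsewhere), a female pattern. The tissue entry of the samples reads retina while the protocol reads cerebellum: of 15 retinal markers, 11 were too low to test, the 15 together summed to 8.53 to 12.2 CPM in KO and 10.4 to 12.6 CPM in WT libraries, and 15 cerebellar neuron markers summed to 5609 to 7056 CPM in KO and 5330 to 6383 CPM in WT libraries. CPM here are read counts scaled to the TMM-adjusted size of each library.

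Genes of every stage of the lineage were expressed at this age. Per kilobase of exon, which allows genes to be set side by side, the mean level of Mbp was 1776 CPM per kb in KO and 1425 CPM per kb in WT libraries, ahead of Cldn11 (503 in KO and 441 in WT) and Cnp (447 in KO and 433 in WT). Precursor genes were far lower on the same scale, with Lhfpl3 at 22.6 CPM per kb in KO and 20.04 in WT, Pdgfra at 7.16 in KO and 7.09 in WT, and Matn4, the lowest member, at 1.26 in KO and 1.28 in WT. The 34 genes together took 2.91% to 3.13% of gene reads other than Rn45s in KO and 2.12% to 2.81% in WT libraries. Mbp alone supplied more than the other 33 genes combined, with 15380, 13760 and 15980 CPM of sums of 24850, 23830 and 25610 CPM in KO replicates 1 to 3, and 12000, 12740 and 11480 CPM of sums of 21210, 22610 and 19730 CPM in WT replicates 1 to 3.

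**Figure D1:**
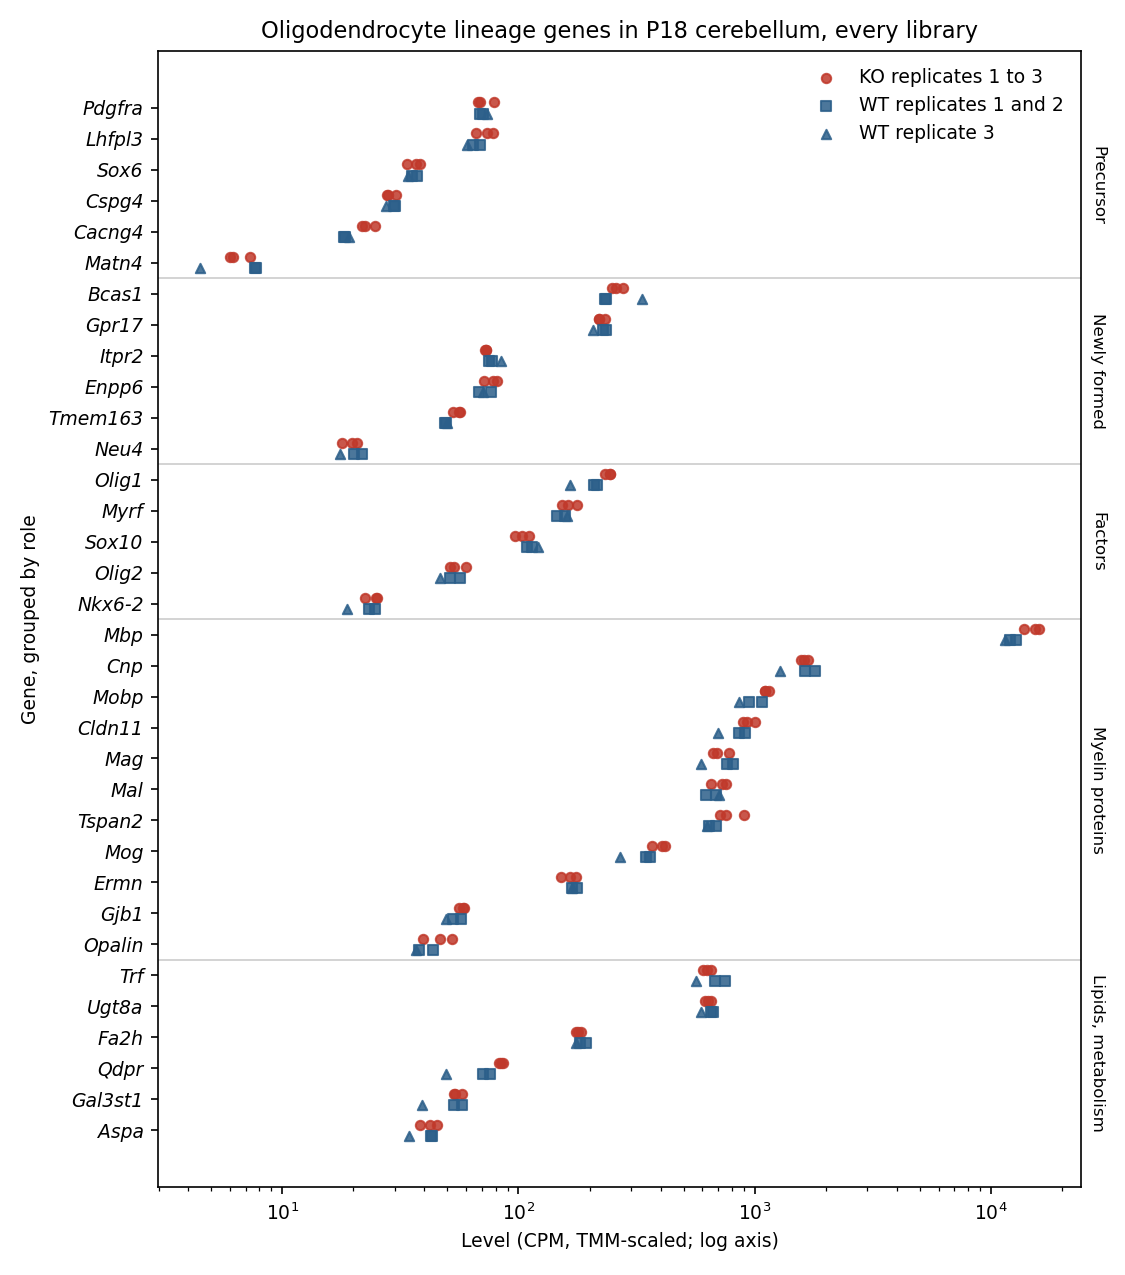
Level of each of the 34 genes in every library (CPM with TMM-scaled library sizes, log axis), grouped by role, with KO libraries (red circles) drawn above WT libraries (blue squares; the triangle is WT replicate 3). Levels run from Matn4 at 4.49 to 7.74 CPM to Mbp at 11480 to 15980 CPM, and in most genes the KO and WT points share the same range.

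Between the genotypes, differences in the lineage were small in size. With the quasi-likelihood test of edgeR and p-values adjusted by Benjamini-Hochberg over every tested gene, 1 of the 34 genes passed an adjusted p of 0.05. This gene, Cacng4, rose in KO. None fell. Among all tested genes, 16.7% passed (6.43% higher and 10.2% lower in KO), so the share of called lineage genes was below that background in edgeR. With DESeq2 the order turned: it called 7 members, all higher in KO (20.6%), against 16.9% of all tested genes in either direction and 7.35% higher in KO. The genes DESeq2 added to Cacng4 were Olig1, Mbp, Mog, Mobp, Tspan2 and Qdpr. At an unadjusted p under 0.05 in edgeR there were 8 members (23.5%), all higher in KO, against 32.5% of all tested genes in either direction and 14.7% higher in KO. The median log2 fold change, KO minus WT, was 0.08 over the 34 genes and −0.01 over all tested genes, and 23 of the 34 values were positive (67.6%, against 49.2% of all tested genes). The median of the 34 depended on single libraries: it was 0.036 without WT replicate 3 and 0.127 without WT replicate 2, the ends of the leave-one-out range. All 3 KO libraries lay above all 3 WT libraries in 8 members (23.5%, against 18.9% of all tested genes) and below them in 1 member (2.94%, against 20.5%).

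The intervals show how large a difference these libraries could still hide. The approximate 95% interval of the log2 fold change lay within a 1.5-fold change in either direction for 33 of the 34 genes, against 68.3% of all tested genes. All tested genes were not matched to the 34 for read depth, which also affects the width of an interval. The exception was Qdpr, whose interval ran from 0.06 to 0.63. The lowest bound of any member was −0.49, in Matn4. For 26 of the genes the interval included 0.

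**Figure D2:**
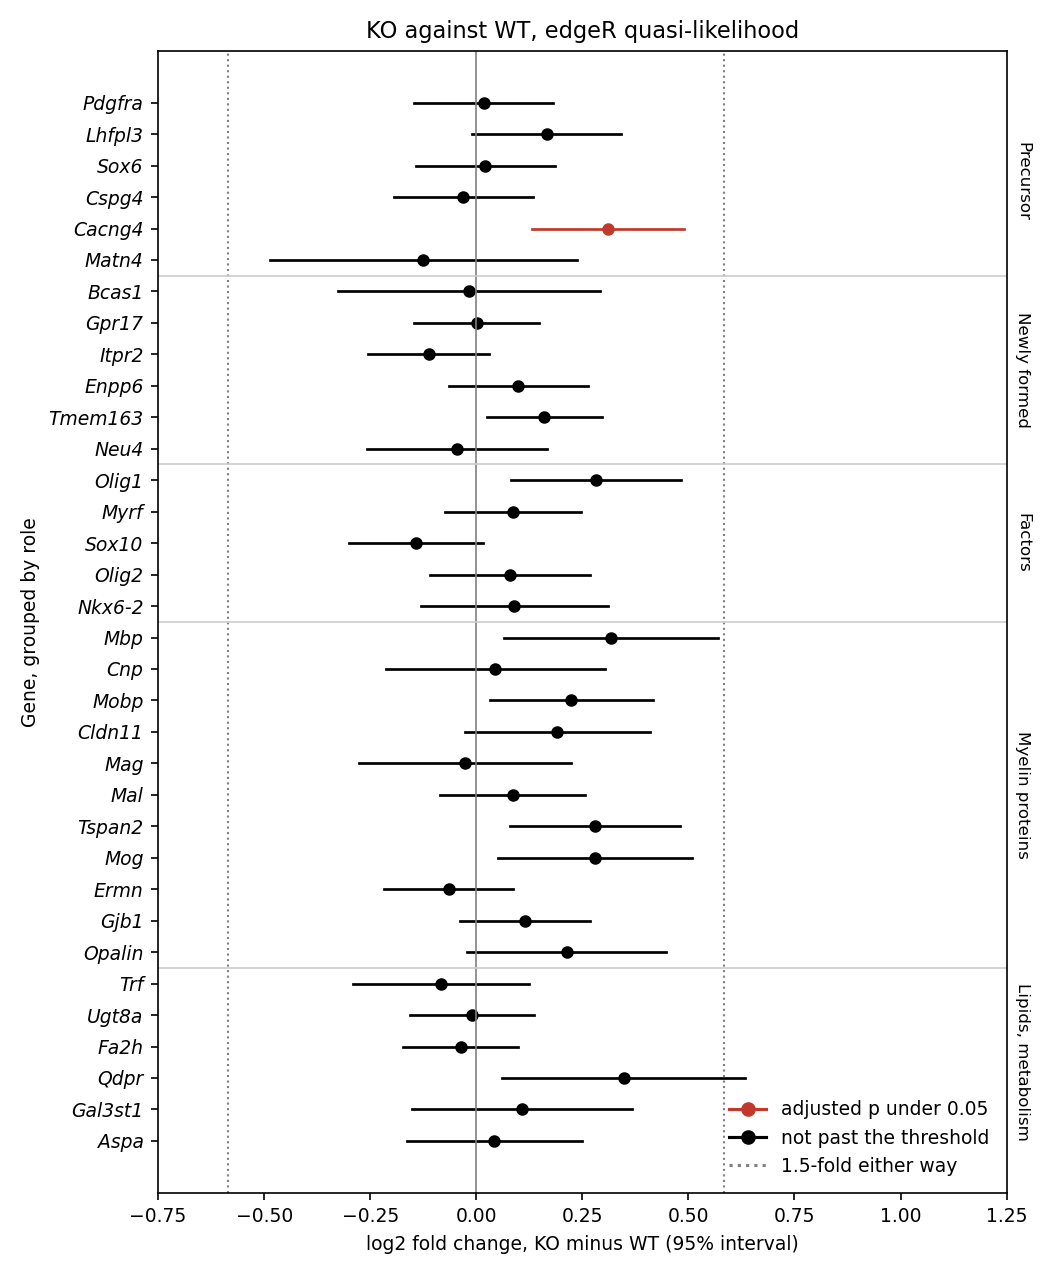
Log2 fold change of each gene, KO minus WT, with its approximate 95% interval from edgeR's quasi-likelihood fit; dotted lines mark 1.5-fold in either direction. Cacng4 (red, 0.31) is the only gene past an adjusted p of 0.05, and only the interval of Qdpr crosses a dotted line.

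Among the precursor genes, Cacng4, an auxiliary subunit of AMPA receptors that precursors express (chr11:107732357-107794557, GENCODE M21 on GRCm38), had 22.5, 21.8 and 24.7 CPM in KO replicates 1 to 3 and 18.4, 18.4 and 19.2 CPM in WT replicates 1 to 3. Every KO library was above every WT library. The mean was 23.0 ± 1.53 CPM in KO and 18.7 ± 0.492 CPM in WT (SD, n = 3 each), which gave a log2 difference of 0.31 with an SE of 0.08 (edgeR, Benjamini-Hochberg adjusted p = 0.0273). The call depended on the libraries: it was lost without KO replicate 1 (adjusted p = 0.0719), KO replicate 2 (0.055), KO replicate 3 (0.120), WT replicate 1 (0.0675) or WT replicate 2 (0.0986), at log2 values of 0.26 to 0.35, and held without WT replicate 3.

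The other precursor genes gave no call. Pdgfra, the growth factor receptor that defines precursors, had 67.6, 78.7 and 68.9 CPM in KO replicates 1 to 3 and 70.8, 68.9 and 73.5 CPM in WT replicates 1 to 3, so that the groups overlapped (log2 0.02, 95% interval −0.15 to 0.18). Cspg4, a surface proteoglycan of precursors, averaged 28.7 ± 1.39 CPM in KO and 29.1 ± 1.47 CPM in WT (SD, n = 3 each; log2 −0.03, interval −0.19 to 0.13). Both genes are also known from other cells, Cspg4 from pericytes and Pdgfra from fibroblasts of the meninges. Lists that hold markers of those cells moved with genotype. Of 15 vessel genes, pericyte and endothelial together, 12 fell and 0 rose (Vtn by the largest amount, −0.67, with the endothelial genes Slco1a4 at −0.65, Cldn5 at −0.65 and Pecam1 at −0.56), with a summed level of 272 to 280.0 CPM in KO and 359 to 396 CPM in WT libraries. Among the pericyte and other mural genes, Vtn, Anpep (−0.51), Rgs5 (−0.44), Abcc9 (−0.44) and Pdgfrb (−0.24) were called lower. Kcnj8 (−0.20) and Notch3 (0.12) gave no call. Of 15 meningeal fibroblast genes 8 fell and 0 rose (among them Col3a1 at −0.95, Col6a1 at −0.71, Col1a2 at −0.59 and Ogn at −0.50), with sums of 483 to 507 CPM in KO and 599 to 877 CPM in WT libraries. Without KO replicates 1 to 3 in turn, 8, 8 and 6 vessel genes and 4, 4 and 4 fibroblast genes were lower, and 5 fibroblast genes were lower without WT replicate 2. Their part in the levels of Pdgfra and Cspg4 was not tested. Lhfpl3, a tetraspan membrane protein gene enriched in precursors, stood at 72.5 ± 6.24 CPM in KO and 64.4 ± 3.90 CPM in WT (log2 0.17, interval −0.01 to 0.34). Sox6, a Sox factor that holds precursors in their state, differed by 0.02 (interval −0.14 to 0.19). The matrix protein gene Matn4 had 6.02, 7.32 and 6.20 CPM in KO and 7.70, 7.74 and 4.49 CPM in WT libraries, the last from 29 reads in WT replicate 3, and its log2 fold change was −0.13 (interval −0.49 to 0.24).

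Genes of newly formed oligodendrocytes had nearly the same mean sum, 709.6 ± 5.50 CPM in KO and 709.5 ± 46.2 CPM in WT (SD, n = 3 each). The sums were 713.1, 712.5 and 703.3 CPM in KO replicates 1 to 3 and 680.3, 685.5 and 762.8 CPM in WT replicates 1 to 3. The equal means thus rested on WT replicate 3, and WT replicates 1 and 2 lay below all KO libraries. Gpr17, a receptor expressed for a short time between precursor and myelinating cell, had 219, 233 and 219.8 CPM in KO replicates 1 to 3 and 235, 228 and 207 CPM in WT replicates 1 to 3. The groups overlapped, and the log2 fold change was 0.00, with an interval from −0.15 to 0.15. Bcas1, a protein gene of early myelinating cells, had 277, 249 and 259.6 CPM in KO replicates and 232, 234 and 334 CPM in WT replicates. WT replicate 3 thus lay above all other libraries and WT replicates 1 and 2 below them, and the log2 fold change was −0.02 with all libraries and 0.17 without WT replicate 3 (adjusted p = 0.0509).

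Tmem163, a zinc transporter gene, and Itpr2, a receptor channel of internal calcium stores, were the newly formed genes whose groups did not overlap. Tmem163 had 55.9, 56.8 and 53.1 CPM in KO and 49.0, 49.6 and 49.9 CPM in WT libraries (log2 0.16, SE 0.06; edgeR adjusted p = 0.0968). It passed without WT replicate 3 (adjusted p = 0.0460). Itpr2 had 72.8, 73.2 and 71.9 CPM in KO and 75.1, 77.4 and 84.2 CPM in WT libraries, the one member with all KO libraries below WT (log2 −0.11, SE 0.06; adjusted p = 0.253). The groups of Enpp6, a choline phosphodiesterase that marks the onset of differentiation, overlapped (76.9 ± 5.12 CPM in KO and 71.8 ± 4.30 CPM in WT), as did those of the sialidase gene Neu4 (19.5 ± 1.47 CPM in KO and 19.8 ± 2.11 CPM in WT; SD, n = 3 each).

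Of the transcription factors of the lineage, Olig1, a basic helix-loop-helix factor, had the adjusted p closest to the threshold among them, and its call depended on the method. It had 232, 245 and 243 CPM in KO replicates 1 to 3 and 208, 216 and 166 CPM in WT replicates 1 to 3, with no overlap (log2 0.28, SE 0.09; edgeR adjusted p = 0.0573). WT replicate 3 was the lowest library, and without it the log2 fold change was 0.18 with an adjusted p of 0.0262. Olig1 also passed with RLE size factors (adjusted p = 0.04995), without the low-count filter (0.0372), with DESeq2 (0.0253), with limma-voom and quality weights (0.032) and without regard to strand (0.0431). In edgeR it did not pass with Rn45s removed (0.0564) or with the replicate number as a block (0.0976). It also failed to pass without KO replicate 1, 2 or 3, or without WT replicate 1 or 2. Its neighbour and relative Olig2, which specifies the lineage, had 53.4, 59.9 and 51.2 CPM in KO and 51.3, 56.4 and 46.7 CPM in WT libraries, with overlapping groups (log2 0.08, interval −0.11 to 0.27).

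Sox10, the factor that holds oligodendrocyte identity and drives myelin genes, had 104, 111 and 96.9 CPM in KO replicates and 109, 115 and 121 CPM in WT replicates (log2 −0.14, interval −0.30 to 0.01). Myrf, the membrane-bound factor needed for myelination, averaged 164 ± 12.3 CPM in KO and 155 ± 7.496 CPM in WT (log2 0.09, interval −0.07 to 0.25; SD, n = 3 each). Nkx6-2, a homeobox factor of myelinating cells, averaged 24.2 ± 1.52 CPM in KO and 22.2 ± 3.11 CPM in WT (log2 0.09). At its locus 49.2% to 60.5% of gene-assigned reads fell on the other strand, where the annotation places Inpp5a, so that the value of Nkx6-2 rests on the counts by strand. In all other members the other strand held at most 2.34% of reads.

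Genes of myelin proteins lay slightly higher in KO, with 9 of 11 positive values (81.8%, against 49.2% of all tested genes) and a median log2 fold change of 0.19. None passed the adjusted threshold in edgeR. DESeq2 called 4 of them higher, Mbp (adjusted p = 0.00112), Tspan2 (0.0243), Mog (0.0455) and Mobp (0.0486), and 7.35% of all tested genes higher. Mbp and Tspan2 also passed without the low-count filter (0.0446 and 0.0315) and with limma-voom and quality weights (0.00506 and 0.0462), and Tspan2 without regard to strand (0.0424). In edgeR neither passed with RLE size factors (0.0740 and 0.0535) or with the replicate number as a block (0.190 and 0.0833). Neither passed without KO replicate 2, KO replicate 3, WT replicate 1 or WT replicate 2. The summed level of the 11 genes was 21690, 20670 and 22460 CPM in KO replicates 1 to 3 and 18080, 19340 and 16780 CPM in WT replicates 1 to 3. All KO sums lay above all WT sums. WT replicate 3 was the lowest of the 6 libraries here, as it was in 23 of the 34 members. Without WT replicate 3 the log2 fold change was lower in every myelin protein gene except Mal (0.13). It was then 0.09 in Cldn11, −0.08 in Cnp and −0.15 in Mag.

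Mbp, whose protein compacts the myelin membrane, had 15380, 13760 and 15980 CPM in KO and 12000, 12740 and 11480 CPM in WT libraries, a log2 fold change of 0.32 (SE 0.11; edgeR adjusted p = 0.0817). The groups did not overlap, and without WT replicate 3 the gene passed (0.29, adjusted p = 0.0106). Mog, an immunoglobulin-like protein of the outer myelin surface, had 367, 419 and 405 CPM in KO and 346, 361 and 270.4 CPM in WT libraries (log2 0.28, SE 0.10; adjusted p = 0.0882). Without WT replicate 3 its value was 0.17. Mobp, a basic protein of compact myelin, had 1150, 1104 and 1106 CPM in KO and 944, 1069 and 862 CPM in WT libraries (log2 0.22, SE 0.09; adjusted p = 0.1004). Tspan2, a tetraspanin of differentiating oligodendrocytes, had 713, 904 and 758 CPM in KO and 643, 686 and 626 CPM in WT libraries (log2 0.28, SE 0.09; adjusted p = 0.0580). KO replicate 2 was its highest library, and without it the value was 0.18, whereas without KO replicate 1 the gene passed (0.35, adjusted p = 0.0466). In all 4 genes every KO library was above every WT library, which held for 36.4% of the myelin protein genes and 18.9% of all tested genes.

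The promoter letters of the myelin protein genes whose groups did not overlap are shown for the 3 with an entry in the RefSeq table (GRCm38.p6), as the 250 bases before the first listed start. Mobp lies at chr9:120149492-120149741 (+ strand), Mog at chr17:37023399-37023648 (− strand) and Tspan2 at chr3:102734520-102734769 (+ strand). Each is written 5′ to 3′ along the gene's strand, and capitals mark matches on either strand to ACAAAG or ACAATG, cores read by Sox factors, CAGATG, an E-box, or CTGGCAC, a motif of Myrf.
Mobp promoter: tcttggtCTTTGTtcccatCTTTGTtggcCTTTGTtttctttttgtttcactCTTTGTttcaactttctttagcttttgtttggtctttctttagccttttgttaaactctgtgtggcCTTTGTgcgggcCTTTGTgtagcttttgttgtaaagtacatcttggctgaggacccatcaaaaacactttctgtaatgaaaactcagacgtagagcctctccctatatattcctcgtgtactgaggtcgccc
Mog promoter: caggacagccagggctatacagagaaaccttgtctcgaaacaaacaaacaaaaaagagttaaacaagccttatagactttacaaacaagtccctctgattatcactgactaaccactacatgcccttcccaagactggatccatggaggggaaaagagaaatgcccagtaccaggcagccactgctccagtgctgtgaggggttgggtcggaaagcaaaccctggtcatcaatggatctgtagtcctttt
Tspan2 promoter: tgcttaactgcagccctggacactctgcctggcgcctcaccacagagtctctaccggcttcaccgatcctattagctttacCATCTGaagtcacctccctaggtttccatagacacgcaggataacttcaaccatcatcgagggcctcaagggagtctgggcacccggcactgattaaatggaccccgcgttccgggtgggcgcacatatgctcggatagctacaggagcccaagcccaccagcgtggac
The Mobp window held 6 matches, all to ACAAAG read on the opposite strand (CTTTGT). The Tspan2 window held 1 match, to CAGATG read on the opposite strand (CATCTG), and these letters were not in the Mog window. The table had entries for 25 of the 34 genes, with 39 starts, some of which overlap. ACAAAG was in 33.3% of those 39 windows and in 16.5% of all 32851 windows of the same length. The other shares were 20.5% and 10.7% for ACAATG, 17.9% and 14.4% for CAGATG, and 7.69% and 4.19% for CTGGCAC. A match describes letters and is not a measured binding site.

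The remaining myelin protein genes had overlapping groups. Cnp, an enzyme of the cytoplasmic channels of myelin, had 1575, 1688 and 1611 CPM in KO and 1638, 1805 and 1282 CPM in WT libraries, and its value was 0.04 with all libraries and −0.08 without WT replicate 3. Mag, an adhesion molecule facing the axon, averaged 712 ± 56.1 CPM in KO and 724 ± 115 CPM in WT (log2 −0.03, interval −0.28 to 0.22). Mal, a proteolipid of membrane sorting, averaged 712 ± 51.9 CPM in KO and 671 ± 45.9 CPM in WT, and Cldn11, the claudin of myelin tight junctions, 941 ± 57.2 CPM in KO and 824 ± 109.8 CPM in WT (SD, n = 3 each). Cldn11 (0.19) and Opalin, a membrane glycoprotein gene of oligodendrocytes (0.21, interval −0.02 to 0.45), had the larger values of these. Gjb1, a connexin of oligodendrocyte gap junctions, stood at 0.11, and Ermn, a cytoskeletal protein of mature cells, at −0.07 with 164 ± 12.1 CPM in KO and 171 ± 4.83 CPM in WT.

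Enzymes of myelin galactolipids were at nearly the same level in both genotypes. Ugt8a, the galactosyltransferase that makes galactosylceramide, had 635, 616 and 653 CPM in KO replicates and 655, 669 and 593 CPM in WT replicates (log2 −0.01, interval −0.16 to 0.14). Fa2h, which hydroxylates the fatty acids of these lipids, averaged 179 ± 3.68 CPM in KO and 184 ± 9.16 CPM in WT (log2 −0.04, interval −0.17 to 0.10). Gal3st1, which turns galactosylceramide into sulfatide, averaged 54.9 ± 2.27 CPM in KO and 49.9 ± 9.79 CPM in WT (log2 0.11, interval −0.15 to 0.37; SD, n = 3 each). The summed level of the 6 lipid and metabolic genes was 1645, 1579 and 1645 CPM in KO and 1684, 1785 and 1456 CPM in WT libraries, with overlapping groups.

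Qdpr, a reductase that regenerates tetrahydrobiopterin, is expressed in oligodendrocytes and in other cells. It had 83.1, 85.9 and 84.5 CPM in KO and 70.6, 75.7 and 49.4 CPM in WT libraries, with no overlap, and the largest value of any member (log2 0.35, SE 0.13; edgeR adjusted p = 0.0931). WT replicate 3 was far below the other WT libraries, and without it the value was 0.21 with an adjusted p of 0.0114. It also passed with DESeq2 (0.0286) and with limma-voom and quality weights (0.0436). In edgeR it did not pass with RLE size factors (0.0844) or without the low-count filter (0.113). Nor did it pass without KO replicate 1, 2 or 3, or without WT replicate 1 or 2. Trf, transferrin, which oligodendrocytes and choroid plexus make, had 652, 602 and 628 CPM in KO and 679, 747 and 564 CPM in WT libraries (log2 −0.08; adjusted p = 0.585). Without WT replicate 3 it was lower in KO (−0.18, adjusted p = 0.0431), and without WT replicate 2 its sign turned (0.012). A list of 15 choroid plexus genes had 0 calls in edgeR, 0 by DESeq2 and 1 gene at an unadjusted p under 0.05, with sums of 1128 to 1438 CPM in KO and 1137 to 1387 CPM in WT libraries. Aspa, the enzyme that releases acetate from N-acetylaspartate for lipid synthesis, averaged 41.9 ± 3.36 CPM in KO and 40.1 ± 4.79 CPM in WT (log2 0.04, interval −0.16 to 0.25; SD, n = 3 each).

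The ratio of precursor to myelin genes overlapped between the genotypes. For every 1000 CPM of the 17 myelin and metabolic genes, the precursor genes summed to 9.73, 11.2 and 9.92 CPM in KO replicates 1 to 3 and 11.8, 10.6 and 12.04 CPM in WT replicates 1 to 3. KO replicate 2 lay above WT replicate 2, so the groups overlapped, while KO replicates 1 and 3 lay below every WT library. Mbp made up most of the sum of the 17 genes in each library. The newly formed genes were not part of this ratio. The precursor sums themselves were 227, 250 and 239 CPM in KO and 233, 224 and 219.5 CPM in WT libraries, and those of the transcription factors 575, 618 and 569 CPM in KO and 538, 569.1 and 512 CPM in WT libraries.

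**Figure D3:**
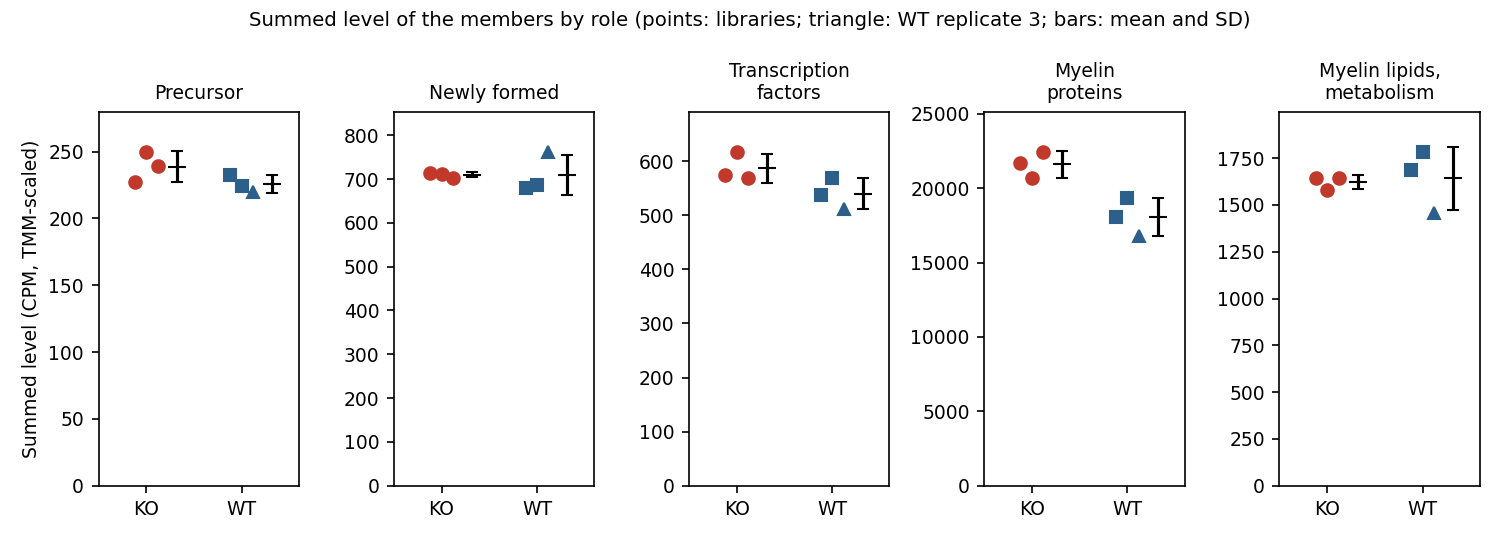
Summed level of the genes of each role per library (CPM with TMM-scaled library sizes), KO left of WT, with the mean and SD of 3 libraries; the triangle is WT replicate 3. Among the 5 roles, the groups are separate in the myelin protein panel alone (20670 to 22460 CPM in KO, 16780 to 19340 CPM in WT), where Mbp makes up most of the sum.

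Other genes of the lineage, outside the 34, spanned a wider range. Log2 fold changes ran from −0.80 to 0.39 in further precursor genes, −0.24 to 0.66 in genes of newly formed cells and −0.41 to 0.39 in genes of myelinating cells. In the 34 they ran from −0.14 to 0.35. The shares called were 16.7%, 22.2% and 12.2% in the same order, against 16.7% of all tested genes and 2.94% of the 34. The value of 0.66 was that of Tcf7l2, without a call. It had 62.8, 61.1 and 49.7 CPM in KO and 57.1, 20.6 and 29.6 CPM in WT libraries, with overlapping groups (interval −0.43 to 1.76). The next highest value in that list was 0.30 (Mycl). Of 18 further precursor genes, 1 rose and 2 fell. Pcdh15, a protocadherin of precursors, fell to 13.3, 16.4 and 16.5 CPM in KO, against 28.4, 24.2 and 28.4 CPM in WT libraries (log2 −0.80, SE 0.11; edgeR adjusted p = 0.00103). Vcan, the matrix proteoglycan versican, fell to 71.6, 72.01 and 74.6 CPM in KO, against 89.3, 96.6 and 96.9 CPM in WT libraries (−0.37, SE 0.06; adjusted p = 0.00362). Ncan, the related neurocan, which neurons and astrocytes also make, rose to 267, 284 and 278 CPM in KO, against 226, 207 and 199.9 CPM in WT libraries (0.39, SE 0.07; adjusted p = 0.00369). In each of the 3 genes the groups were apart, and each call held under all 14 alternative settings. Other cells of the brain also make Vcan. Of the other listed genes, Ptprz1, a receptor phosphatase of precursors and astrocytes, was at −0.11 and the homeobox factor Nkx2-2 at −0.18, both without a call.

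Of 18 further genes of newly formed cells, 2 rose and 2 fell. The calls were Tns3, a tensin of differentiating cells (0.24, adjusted p = 0.0183), and Mycl, a Myc family factor (0.30, adjusted p = 0.0323), which rose, and Pik3r3, a regulatory subunit of phosphoinositide kinase (−0.24, adjusted p = 0.0198), and Plxnb3, a semaphorin receptor (−0.24, adjusted p = 0.0265), which fell, all in edgeR. Without KO replicate 2 or 3 none of the 4 was called. Mycl alone was called without KO replicate 1, Pik3r3 alone of the 4 without WT replicate 1 and Tns3 alone without WT replicate 2.

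Of 49 further genes of myelinating cells, 5 rose, 1 fell and 43 did not pass (median log2 0.08). The called share was 12.2%, against 16.7% of all tested genes. Positive values were found in 36 of the 49 (73.5%, against 49.2% of all tested genes). Every KO library was above every WT library in 17 genes (34.7%, against 18.9%) and below in 3 (6.12%, against 20.5%). Tmem125 (0.39), the protease Klk6 (0.36), the connexin Gjc3 (0.30), Plekhb1 (0.28) and the carbonic anhydrase Car2 (0.24) rose. Hapln2, a link protein of the nodal matrix that oligodendrocytes make, fell to 29.3, 28.4 and 31.5 CPM in KO, against 40.7, 41.8 and 34.3 CPM in WT libraries (−0.41, SE 0.08; adjusted p = 0.0107). The counts of calls moved with single libraries. Higher calls numbered 1 without KO replicate 3 and 2 without KO replicate 1 or WT replicate 2. Without WT replicate 3 there were 9 higher and 5 lower.

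Of 17 tested enzymes of sphingolipid synthesis and turnover, which feed the galactolipids of myelin, Degs1, a ceramide desaturase, rose (0.24, adjusted p = 0.0191) and the ceramide synthase Cers4 fell (−0.29, adjusted p = 0.0367) in edgeR's quasi-likelihood test. Both calls were lost without any 1 of KO replicates 1, 2 and 3. Cers2, the ceramide synthase of very long chains in oligodendrocytes, stood at −0.04. Of 18 tested genes of the node and paranode, the gaps and flanks between myelin segments, 5 rose and 0 fell. This was 27.8%, against 6.43% of all tested genes called higher. All 5 are made by neurons. They were Kcnab2 (0.39), Scn8a (0.27), Kcna1 (0.23) and Kcna2 (0.23), subunits of axonal ion channels, and Cntnap1 (0.25), the axonal partner at the paranode. Without KO replicates 1, 2 and 3 the number was 1, 0 and 1, without WT replicate 2 it was 1, and without WT replicate 3 it was 8. Nfasc (0.22, edgeR adjusted p = 0.0700) and Cntn1 (0.19, 0.0692), further paranode genes, gave no call. In both, every KO library was above every WT library. That held for 11 of the 18 genes (61.1%, against 18.9% of all tested genes). Positive values were found in 15 of the 18 (83.3%, against 49.2% of all tested genes).

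**Figure D4:**
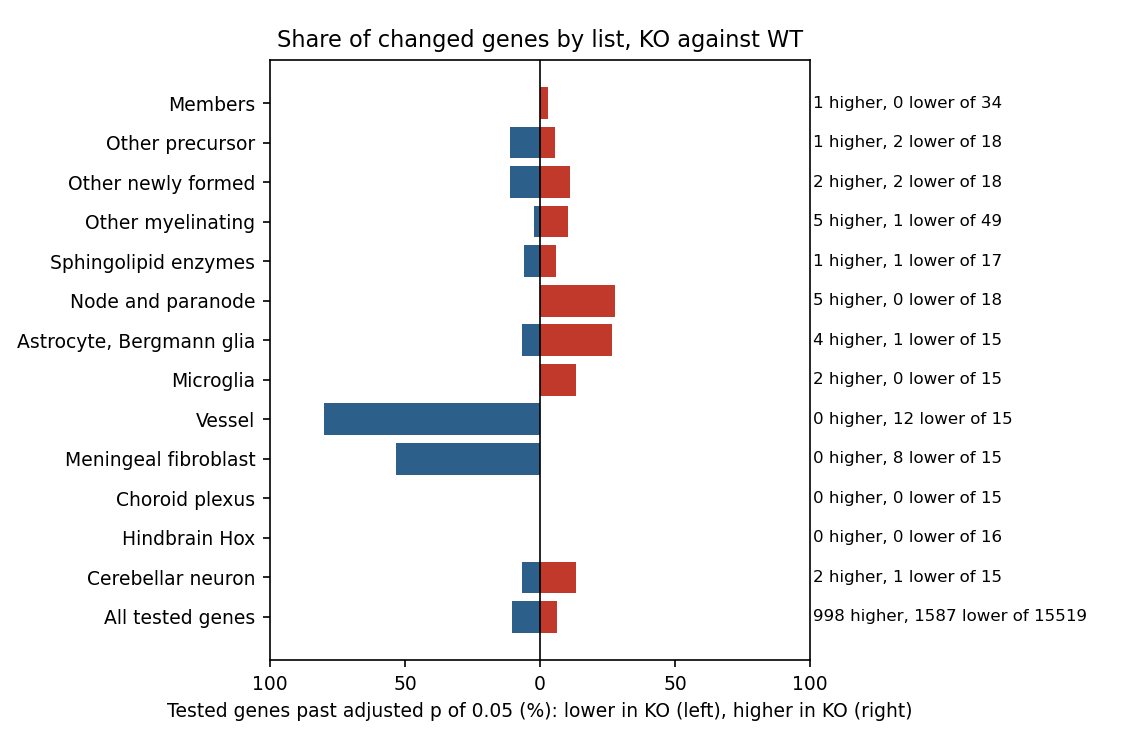
Share of tested genes past an adjusted p of 0.05 in each list, higher in KO to the right (red) and lower in KO to the left (blue), with the counts beside each bar. In this edgeR fit the 34 lineage genes (1 higher, 0 lower) have a smaller share than all tested genes, and the vessel (12 of 15) and meningeal fibroblast (8 of 15) lists have the largest shares, all lower in KO.

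Markers of neighbouring cells give the setting of these values. Of 15 astrocyte and Bergmann glia genes, the glutamate transporter Slc1a2 (0.38), Timp4 (0.37) and the connexins Gjb6 (0.25) and Gja1 (0.20) rose and the lipid carrier Fabp7 (−0.37) fell, with sums of 7637 to 8397 CPM in KO and 6959 to 7187 CPM in WT libraries. Of 15 cerebellar neuron genes, the calcium pump Atp2b2 (0.38) and the Purkinje cell protein Calb1 (0.36) rose and the granule cell receptor subunit Gabra6 (−0.66) fell. Leaving out 1 library gave 1 to 2 higher and 0 to 5 lower genes in this list: Calb1 lost its call without KO replicate 1 or KO replicate 3, Gabra6 lost its call without KO replicate 3 or WT replicate 3, and 4 genes were lower without KO replicate 1 and 5 without WT replicate 1. Of 15 microglia genes, the chemokine receptor Cx3cr1 (0.51) and the protease Ctss (0.32) rose, and 13 did not pass. Of 16 tested Hox genes, which mark brainstem attached to the cerebellum, 0 were called in edgeR or DESeq2 and 0 had an unadjusted p under 0.05, with sums of 67.3 to 113 CPM in KO and 74.1 to 102 CPM in WT libraries. Without KO replicate 1 or KO replicate 3, 0 astrocyte genes were higher, and 1 was without WT replicate 2. Ctss lost its call without KO replicate 2, KO replicate 3 or WT replicate 2. The part of any of these lists in the values of the 34 genes was not tested.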

How the data were processed

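RNA sequencing libraries of cerebellum at postnatal day 18 were available from 3 KO and 3 WT samples, grouped and numbered by their titles. Each deposited file gives whole-number read counts by gene with no normalization. The submitters' processing notes name Trimmomatic, STAR and mm10, without versions or the gene annotation. Of the 3 count columns, the one for the strand that held most reads was used, and the 4 summary lines entered neither library sizes nor tests.

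Low genes were removed with filterByExpr, which left 15519 of 24411 genes. The KO and WT groups were tested with edgeR's quasi-likelihood method (edgeR 4.0.16, R 4.3.3) after TMM scaling, p-values were adjusted by Benjamini-Hochberg across every tested gene, and the adjusted threshold was 0.05. SE are the log2 fold change over the root of F, and 95% intervals use these SE, both approximate and unadjusted. All sample titles carry the same set tag, whose meaning is not stated, and no batch is named. The p-values set the difference between KO and WT against the spread between these samples. A count of 3 reads corresponds to 0.0723 to 0.465 CPM. The script was tested on simulated data. Alternatives used DESeq2 1.42.0 and limma 3.58.1. Exon lengths and overlaps came from GENCODE M21 (GRCm38), promoters from RefSeq. The members and lists were chosen with earlier results of these data known. All 34 members are named, with up to 4 genes of the smallest p of each other list and genes behind counts of 5 or fewer; some genes of these lists are not reported here. Ptprz1, Nkx2-2, Tcf7l2, Cers2, Nfasc, Cntn1, Kcnj8, Notch3 and the lower-ranked genes of longer counts were named after their values were seen.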

Additional observations from a re-analysis of the deposited data

Results flagged for a closer look

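Reads on the strand opposite Nkx6-2, which the comparisons do not use, averaged 30.6 CPM in KO and 24.6 CPM in WT libraries, and every KO library (34.3, 28.6 and 29.0 CPM in KO replicates 1 to 3) was above every WT library (22.5, 26.1 and 25.3 CPM in WT replicates 1 to 3). The result was marked because it is a signal outside the counted strand that exceeded its level in all WT libraries. The annotation places Inpp5a on that strand, and the difference was not tested.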

How the results depend on the processing

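Over 34 genes and 14 alternatives, 413 of 476 log2 fold changes kept their direction and side of the threshold, 22 gained a call, 6 lost one (Cacng4 in each case) and 35 changed sign, all in genes without a call in the main analysis. The number of lineage genes past the threshold was 1, higher in KO. It was 2 with RLE size factors (5.88%, against 17.1% of all tested genes), 4 without the low-count filter (11.8% against 14.1%), 7 with DESeq2 (20.6% against 16.9%), 5 with limma-voom and sample quality weights (14.7% against 26.4%) and 3 with reads counted without regard to strand (8.82% against 19.7%). All these calls were higher in KO, where the shares of all tested genes were 7.09%, 5.98%, 7.35%, 11.1% and 7.93% in the same order. Leaving out 1 library at a time gave 0 to 6 genes (0 to 5 higher and 0 to 1 lower), with 6 without WT replicate 3 (17.6%, against 23.4% of all tested genes), and 1041 to 3719 of all tested genes. Limma-voom with quality weights called 4092 of all tested genes, and the median log2 fold change of the members was 0.024 there, against 0.083 in the main fit. Without WT replicates 1 and 3 together, an alternative chosen after seeing the data that leaves 1 WT library assumed to vary like the KO group, 1 lineage gene (Cacng4) and 2234 of all tested genes passed. The cause of these moves was not tested, other than that fewer samples entered the leave-one-out fits.

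The replicate numbers did not pair the samples: deviations of same-numbered KO and WT libraries correlated at −0.183, −0.140 and −0.100. With the replicate block, 0 lineage genes and 1073 of all tested genes passed. Cacng4 was then at 0.30 (adjusted p = 0.0962).

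Log2 fold changes that took the opposite sign to the main fit ran from −0.14 to 0.17. Leaving out 1 library gave ranges of −0.053 to 0.062 for Pdgfra, −0.046 to 0.039 for Gpr17, −0.11 to 0.17 for Bcas1, −0.096 to 0.026 for Neu4, −0.013 to 0.076 for Sox6, −0.15 to 0.064 for Mag, −0.08 to 0.15 for Cnp, −0.057 to 0.024 for Ugt8a, −0.011 to 0.22 for Gal3st1, −0.063 to 0.0041 for Fa2h, −0.028 to 0.11 for Aspa and −0.18 to 0.012 for Trf. Ugt8a was at 0.0046 without the filter and 0.0059 without regard to strand, where Bcas1 was at 0.0027. With quality weights, Gpr17 was at −0.029, Bcas1 at 0.10, Cnp at −0.040 and Aspa at −0.0086. Without WT replicates 1 and 3, the values were −0.018 for Gpr17, 0.17 for Bcas1, −0.030 for Olig2, −0.021 for Nkx6-2, −0.14 for Cnp, −0.060 for Gal3st1 and −0.0091 for Aspa. Depth limits Matn4 most, with 29 reads in WT replicate 3.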

Other observations

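Of 10 listed markers of Schwann cells, the myelinating cells of peripheral nerve, 1 was called higher in KO and 0 lower, and the other 9 gave no call. Ngfr, a neurotrophin receptor also known from other cells, had 7.29, 6.56 and 7.11 CPM in KO and 4.73, 4.15 and 4.80 CPM in WT libraries (log2 0.63, SE 0.12; edgeR adjusted p = 0.00714), with every KO library above every WT library, and its call held under all 14 alternatives. Pmp22, a membrane protein of peripheral myelin with wider expression, was at 0.17 without a call.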
